A study of Homo sapiens with 12 samples.

Results

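The respiratory chain genes described here are the nuclear genes for protein subunits of complexes I to V, measured by RNA sequencing in HEL leukemia cells whose histone demethylase gene KDM4C was targeted with CRISPR-Cas9. Members were taken by gene symbol, and a level of at least 1 CPM (counts scaled to a common library size) in at least 4 libraries was required. Of 38551 genes in the count table, 74 carried a matching symbol and 70 reached that level. Complex I contributed 5 core and 28 supernumerary subunits, complex II 4, complex III 7, complex IV 11 and complex V 15. NDUFA4, named for complex I, is a subunit of complex IV and was counted there.

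Complexes I to IV sit in the inner mitochondrial membrane and pass electrons from NADH and succinate to oxygen. Complexes I, III and IV pump protons as they do so, and complex V, the ATP synthase, uses the returning protons to make ATP. Most subunits are encoded in the nucleus and imported, a few are encoded on the mitochondrial chromosome, and assembly needs further proteins that are not part of the finished complexes.

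The cells were HEL-Cas9, an established human erythroleukemia line with a mutated JAK2 kinase that carries Cas9 under blasticidin selection. They were transduced with lentivirus carrying guide sg2 or guide sg3 against KDM4C, or a luciferase (Luc) guide as control. Puromycin selection (1.5 µg/mL, 11 days) was common to every group, and the column names mark all libraries as vehicle (DMSO). The 12 libraries comprise 4 with sg2, 4 with sg3 and 4 controls. The sources describe transduced cultures and name no isolated clones. Replicate cultures were set up only for the final treatment. The p-values therefore reflect the scatter of these libraries alone, and that scatter may be technical.

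Total counts lay between 10031809 and 78966125 per library, and the subunit genes together took 0.722% to 0.956% of them. KDM4C mRNA was 47.1 ± 6.62 CPM with sg2, 61.7 ± 1.86 CPM with sg3 and 69.4 ± 1.72 CPM in control (SD, n = 4 each), with every knockout library under every control. The log2 fold change was -0.57 for sg2 (SE 0.07, adjusted p = 2.59e-05) and -0.17 for sg3 (SE 0.07, adjusted p = 0.0499, over the threshold in 13 of 24 alternative settings). Adjusted p-values here and below come from edgeR's quasi-likelihood test with Benjamini-Hochberg adjustment over 13996 genes, and a gene was called at 0.05. All 9 erythroid and megakaryocyte markers checked were tested. In the guide average 2 were called higher and 3 lower (22.2% and 33.3%, against 21.6% and 22.3% of all genes), and 4 were not called. The defining T cell, B cell, liver and myelomonocytic markers had at most 5 counts in any library. EPCAM (epithelial) reached 10 counts and the fibroblast collagens COL1A1 and COL3A1 27 and 30. COL1A1 was called higher in the guide average (log2 fold change 0.66, adjusted p = 0.0275), as was PECAM1, which is endothelial but also on megakaryocytes (0.15, adjusted p = 0.00131), and their part in the results was not tested.

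With KDM4C targeted, most respiratory chain subunit genes did not pass the test. In the average of both guides against control, 1 of 70 subunit genes was called higher and 10 were called lower, while 59 were not called. That was 15.7% of the subunit genes (1.43% higher, 14.3% lower), against 43.9% of all genes tested (21.6% higher, 22.3% lower). The 10 lower genes were NDUFB2, NDUFS5, NDUFA8, NDUFB9, NDUFA11, NDUFB10, NDUFA5 and NDUFA9 of complex I, and ATP5MC1 and ATP5PB of complex V.

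The changes were small. All 70 log2 fold changes lay between -0.30 and 0.16, whereas 24.1% of all genes tested changed by 0.3 or more. The median was -0.08 over the subunit genes and -0.005 over all genes tested, and 58 of the 70 values were negative. With sg3 alone, 1 gene had all 4 libraries above all controls and 8 had them below, against 20.2% and 19.5% of all genes. With sg2 alone, 4 lay above and 1 below, against 14.9% and 14.3%. No subunit gene had all 8 knockout libraries on 1 side of all 4 controls, a separation that 12% of all genes showed upward and 11.3% downward.

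**Figure D1:**
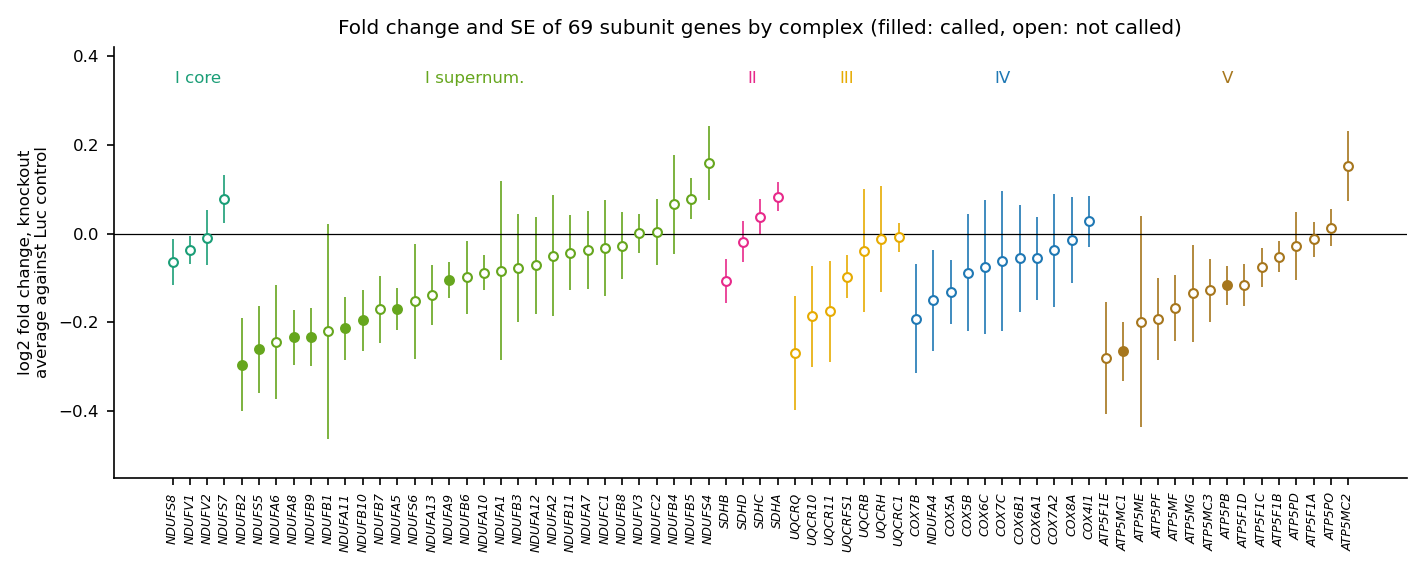
Log2 fold change of each of 69 subunit genes (y axis; genes by complex on the x axis) in the average of both guides against Luc control, with bars of 1 SE. Filled points are the 10 genes called lower, and every value lies between -0.30 and 0.16.

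The guides gave different counts. With sg2, 1 subunit gene was called higher and 0 lower, against 28.3% of all genes called in either direction (14.5% higher, 13.9% lower). The sg2 count of 0 lower genes compares with 5 subunit genes in either direction at an unadjusted p under 0.05, and DESeq2 and limma-voom also called 0 lower. With sg3, 2 were called higher (SDHA among them) and 19 lower, which was 30.0% of the subunit genes, against 44.1% of all genes. By direction, 27.1% of the subunit genes were lower, against 22.2% of all genes, and 2.86% were higher, against 21.9%. The median log2 fold change was 0.01 with sg2 and -0.19 with sg3. The direct comparison of sg3 with sg2 called 0 subunit genes and 1 gene in all (0.00714%), although 20 subunit genes had an unadjusted p under 0.05. DESeq2 and limma-voom also called 0 subunit genes, but their counts over all 13996 genes differed. DESeq2 called 93 genes higher and 28 lower with sg3 than with sg2, and limma-voom 18 higher and 0 lower. The guide comparisons share the control libraries.

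Complex I accepts electrons from NADH. Its core subunits carry the flavin, the iron-sulfur clusters and the quinone site. NDUFS8, a core subunit with iron-sulfur clusters and the core member with the highest level per length in control, was not called. It measured 62.3 ± 3.36 CPM with sg2, 59.8 ± 5.66 CPM with sg3 and 63.8 ± 2.64 CPM in control (SD, n = 4 each).

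Supernumerary subunits surround the core of complex I and are needed for its assembly and stability rather than for electron transfer itself. In the guide average 8 of 28 were called lower, 0 higher and 20 were not called. That was 28.6% lower, against 22.3% of all genes, and 0% higher, against 21.6%. NDUFA8, a subunit on the intermembrane space side, measured 39.1, 37.5, 36.2 and 35.0 CPM with sg2 and 35.8, 36.0, 32.4 and 30.2 CPM with sg3, against 42.2, 39.9, 47.6 and 36.4 CPM in control. All sg3 libraries lay below all controls, while the sg2 libraries overlapped only control library 4. The log2 fold change was -0.23 (SE 0.06, adjusted p = 0.00612).

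NDUFB9, an accessory subunit of the membrane arm, measured 220, 219, 192 and 201 CPM with sg2 and 203, 203, 178 and 150 CPM with sg3, against 236, 222, 243 and 217 CPM in control. The sg3 libraries lay below every control, and sg2 libraries 1 and 2 overlapped the controls. Its log2 fold change was -0.23 (SE 0.07, adjusted p = 0.00887), and it shares 25.9% of its exon bases with TATDN1 on the opposite strand. The stated counting options name no strand, and how read pairs in such shared bases were counted was not checked. In the guide average NDUFA8 and NDUFB9 kept their call in all 24 alternative settings.

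NDUFB2, another membrane arm subunit, had the largest fall of the 70. It measured 24.2, 25.3, 21.4 and 23.8 CPM with sg2 and 19.1, 24.9, 18 and 14 CPM with sg3, against 27.2, 24.7, 30.3 and 22.8 CPM in control, so both knockout groups overlapped the controls. The log2 fold change was -0.30 (SE 0.10, adjusted p = 0.0303). The call was lost in 5 of 24 settings, among them without control library 1 (adjusted p = 0.0835), without control library 3 (0.113), without sg2 library 3 (0.0571) and without sg3 library 3 (0.0573). NDUFB2 shares 24.3% of its exon bases with an antisense gene, NDUFB2-AS1.

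NDUFS5, a subunit on the intermembrane space side, measured 86.6, 95.1, 75.9 and 87.2 CPM with sg2 and 83.1, 79.0, 63.1 and 49.6 CPM with sg3, against 95.5, 91.3, 102 and 80.9 CPM in control. Libraries sg3 2, 3 and 4 and sg2 3 lay below the lowest control, and the others overlapped the controls. Its log2 fold change of -0.26 (SE 0.10, adjusted p = 0.0416) lost its call in 9 of 24 settings, 7 of which left out a single library (any control except library 4, any sg2 library except library 2, or sg3 library 3), with adjusted p between 0.0607 and 0.131.

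Complexes II, III and IV had 0 genes called in the guide average, of 4, 7 and 11, against 43.9% of all genes. At an unadjusted p under 0.05 they had 2, 0 and 0. DESeq2 and limma-voom called SDHA of complex II, higher, and no other gene of the 3 complexes. The counts differed for sg3 alone, where 1 gene of complex II was called higher and 1 lower, and 2 of complex III lower. Of all genes, 21.9% were higher and 22.2% lower with sg3. Complex II joins the citric acid cycle to the chain, and SDHA, its flavoprotein, measured 186, 183, 185 and 187 CPM with sg2 and 187, 188, 190 and 191 CPM with sg3, against 181, 171, 187 and 167 CPM in control. The knockout libraries lay in the upper part of the control range or above it, with a log2 fold change of 0.10 for sg3 (SE 0.04, adjusted p = 0.0432) and 0.08 for the guide average (SE 0.03, adjusted p = 0.0503). SDHB, the iron-sulfur subunit and the complex II member with the highest level per length, had a log2 fold change of -0.17 for sg3 (SE 0.06, adjusted p = 0.0242) and -0.11 for the guide average (SE 0.05, adjusted p = 0.0897). It measured 93.6 ± 7.01 CPM with sg2, 86.0 ± 5.37 CPM with sg3 and 96.9 ± 5.75 CPM in control (SD, n = 4 each).

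Complex III passes electrons from ubiquinol to cytochrome c. UQCRH, its hinge protein, had the highest level per length and measured 346, 320, 309 and 332 CPM with sg2 and 332, 314, 230 and 179 CPM with sg3, against 318, 284, 334 and 248 CPM in control. Libraries sg3 3 and 4 lay below all others, sg3 1 and 2 within the control range. UQCRQ and UQCR10, small subunits of the complex, were the genes called lower with sg3, at -0.46 for UQCRQ (SE 0.15, adjusted p = 0.0220) and -0.36 for UQCR10 (SE 0.13, adjusted p = 0.0365).

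Complex IV, cytochrome c oxidase, reduces oxygen. COX6B1, which faces the intermembrane space, had the highest level per length of its 11 nuclear subunits and measured 130, 133, 120 and 129 CPM with sg2 and 136, 130, 92.8 and 69.7 CPM with sg3, against 127, 122, 131 and 107 CPM in control. As with UQCRH, sg3 libraries 3 and 4 lay below every other library and sg3 libraries 1 and 2 did not. The log2 fold changes of the 11 genes ran between -0.19 and 0.03 in the guide average. With sg3 edgeR's quasi-likelihood test called 0 of them, against 44.1% of all genes, with 3 at an unadjusted p under 0.05. DESeq2 called COX5A and limma-voom COX5A and COX7B with sg3.

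Complex V had 2 of 15 genes called lower (13.3%, against 22.3% of all genes) and 13 not called. ATP5F1B, the catalytic beta subunit, was the most abundant subunit gene per length and measured 1223 ± 63.2 CPM with sg2, 1213 ± 28.6 CPM with sg3 and 1263 ± 43.7 CPM in control (SD, n = 4 each), with a log2 fold change of -0.05 (SE 0.04, adjusted p = 0.247). ATP5PB, a subunit of the peripheral stalk, had a log2 fold change of -0.12 (SE 0.04, adjusted p = 0.0407) and lost its call in 10 of 24 settings, with adjusted p between 0.0528 and 0.144. Those settings left out, among others, control library 1, 2 or 3, sg2 library 3 or 4, or sg3 library 3 or 4 in turn. It shares 28.4% of its exon bases with C1orf162.

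Subunit c forms the ring that turns as protons pass. ATP5MC1, ATP5MC2 and ATP5MC3 encode the same mature protein behind different import sequences. ATP5MC1 measured 85, 87.2, 72.4 and 81.8 CPM with sg2 and 78.4, 77.4, 69.6 and 59.5 CPM with sg3, against 95, 94.1, 97 and 80.8 CPM in control. All sg3 libraries lay below all controls, and sg2 libraries overlapped only control library 4. Its log2 fold change was -0.27 (SE 0.07, adjusted p = 0.00412), called in all 24 alternative settings.

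ATP5MC2 measured 232, 230, 228 and 234 CPM with sg2 and 248, 241, 188 and 174 CPM with sg3, against 206, 199, 217 and 175 CPM in control. All sg2 libraries and sg3 libraries 1 and 2 lay above all controls, while sg3 library 3 lay below 3 of the controls and sg3 library 4 below all 4. The log2 fold change was 0.15 (SE 0.08, adjusted p = 0.129). ATP5MC3 was at -0.13 (SE 0.07, adjusted p = 0.158). The difference between the paralogs was not tested.

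**Figure D2:**
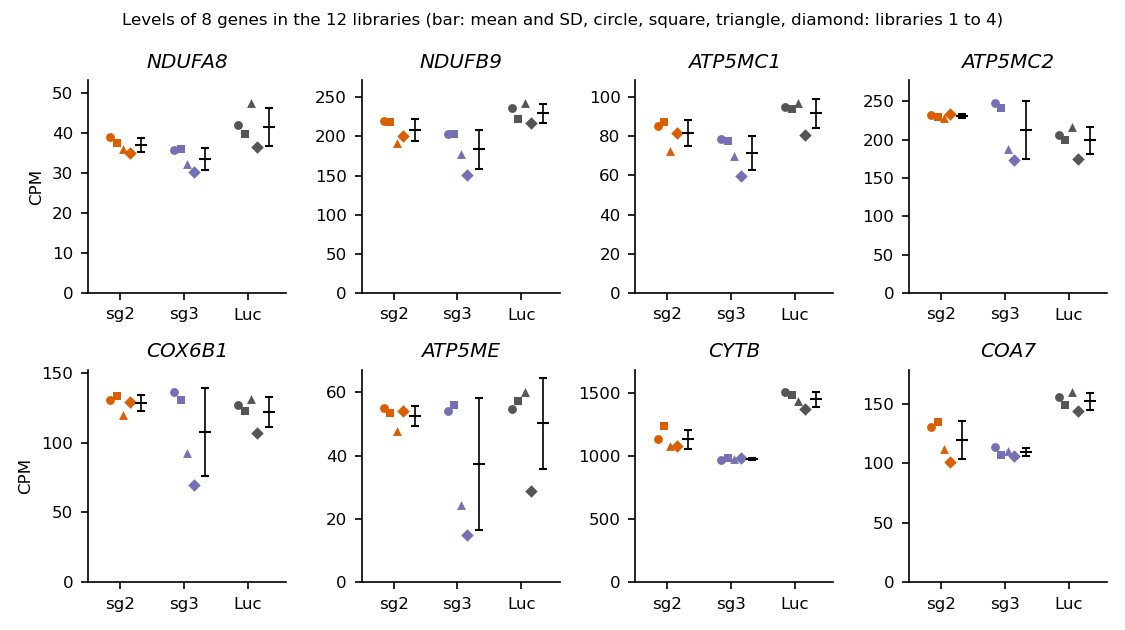
Level in CPM (y axis, from 0) of 8 genes in the 4 sg2, 4 sg3 and 4 Luc control libraries (x axis), with the group mean and SD beside the points. ATP5ME and COX6B1 are low in sg3 libraries 3 and 4, whereas CYTB, a mitochondrial chromosome gene, is lower in all 8 knockout libraries.

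The lower values with sg3 came mainly from part of its libraries. Relative to the control mean, the median log2 level of the 70 genes was 0.05, 0.06, -0.06 and -0.02 in sg2 libraries 1 to 4, 0.03, -0.01, -0.29 and -0.51 in sg3 libraries 1 to 4, and 0.05, -0.02, 0.11 and -0.13 in control libraries 1 to 4. The medians of sg3 libraries 1 and 2 thus lay within the range of sg2 and control, and sg3 3 and 4 stood apart, with control library 4 the lowest of its group. Of the 70 genes, 54 had their lowest level of all 12 libraries in sg3 library 4. By complex, the medians of sg3 libraries 3 and 4 were -0.39 and -0.81 in complex IV, and -0.35 and -0.88 in complex III. The complex I core was at -0.08 and 0.06 and complex II at -0.12 and -0.11.

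**Figure D3:**
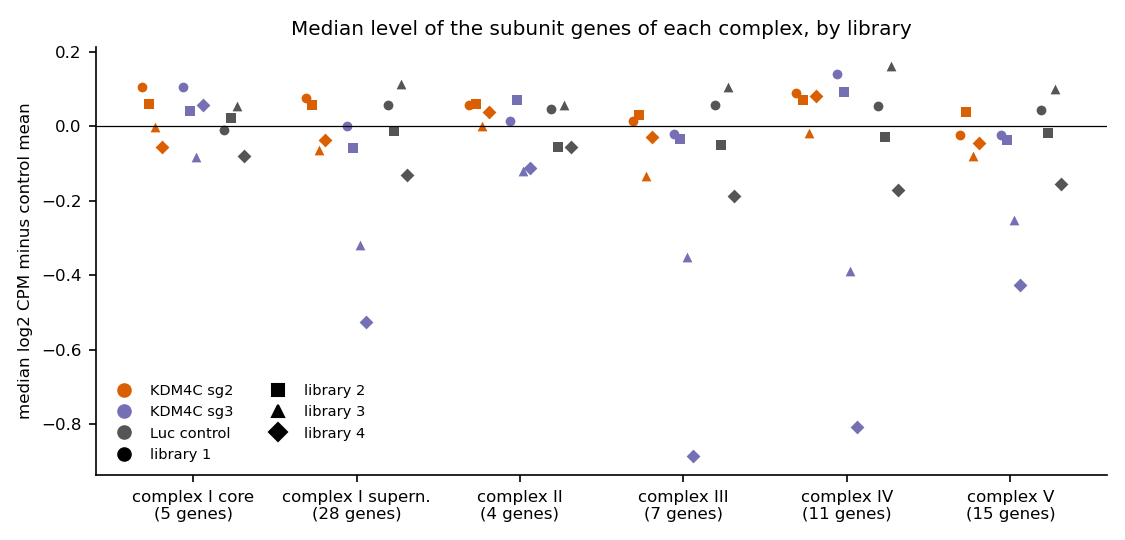
Median log2 CPM of the genes of each complex minus the control mean (y axis) in every library, by complex (x axis), with sg2, sg3 and Luc control side by side. Libraries 3 and 4 of sg3 lie down to -0.88, and the other 2 sg3 libraries lie with sg2 and control.

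The libraries that were low differed most in short genes. The subunit genes have short gene models, with a median of 1315 bases against 4140.5 bases over all genes tested. Of the 17 members under 700 bases, all 17 lay below the control mean in sg3 libraries 3 and 4, by medians of -0.39 and -0.80, and 16 did in control library 4, by -0.21. The 31 members of 1500 bases and over had medians of -0.18, -0.20 and -0.08 in the same 3 libraries. ATP5ME, a membrane subunit of the ATP synthase with a gene model of 303 bases, measured 54.9, 53.5, 47.7 and 54.0 CPM with sg2 and 54.1, 56.1, 24.3 and 14.8 CPM with sg3, against 54.7, 57.3, 60 and 28.9 CPM in control. Its low values lay in the same 3 libraries.

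Short protein-coding genes outside the subunit list showed the same libraries low. The 142 such genes under 700 bases had medians of -0.35 in sg3 library 3, -0.65 in sg3 library 4 and -0.10 in control library 4, and the other 9 libraries lay between -0.04 and 0.17. In the 722 genes from 700 bases to under 1500 bases the same 3 libraries were lowest, at -0.11, -0.19 and -0.07. One alternative fit included a trend on gene length in each library. The median log2 fold change of the 70 genes was then -0.07 in the guide average, -0.002 with sg2 and -0.14 with sg3. In the main fit it was -0.08, 0.01 and -0.19. The part of gene length or of RNA and library quality in the result was not tested. Across the 70 genes, which share their libraries, Spearman's rho between length and fold change was -0.09 for sg2 and 0.40 for sg3, and over all genes tested it was -0.00032 for sg2 and 0.03 for sg3. The spread between libraries of a group was also wider in the subunit genes, with a median pooled SD of 0.166 on the log2 scale against 0.108 over all genes.

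**Figure D4:**
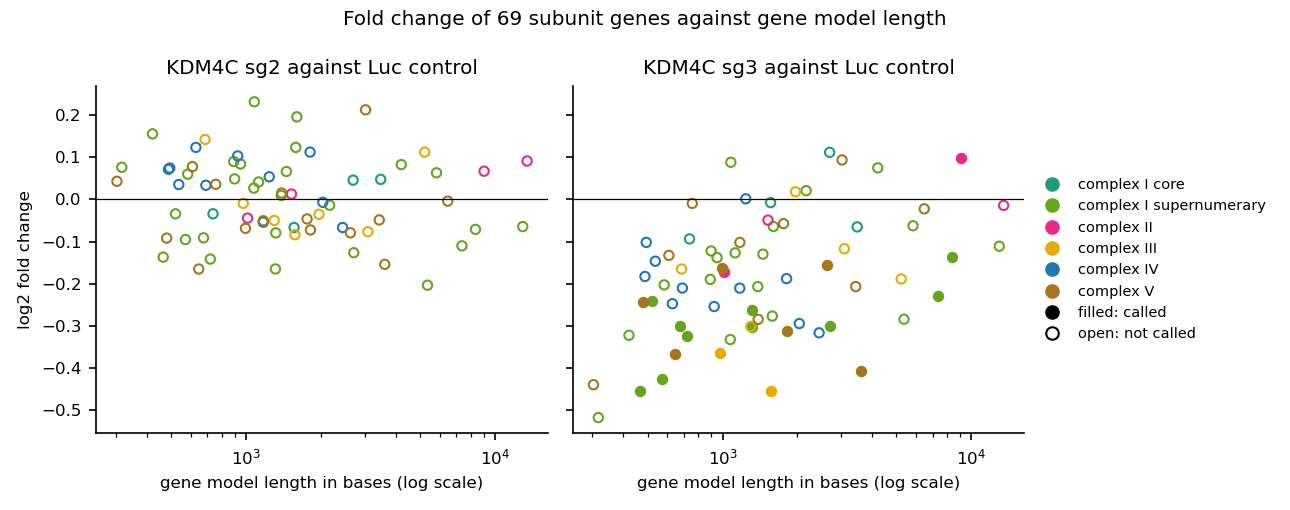
Log2 fold change against Luc control (y axis) over gene model length in bases (x axis, log scale) for 69 subunit genes, with sg2 on the left and sg3 on the right. With sg3 values run down to -0.52 (NDUFB1, a short gene), whereas with sg2 all lie between -0.20 and 0.23.

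In an alternative chosen after seeing the data, sg3 libraries 3 and 4 and control library 4 were left out. The sg3 group then kept libraries 1 and 2, and the control group libraries 1 to 3. The subunit genes had their lowest medians in the left-out libraries. A smaller shift with sg3 therefore follows from the choice and is no separate result. The median log2 fold change was -0.03 in the guide average (-0.08 in all 12 libraries), -0.04 with sg2 (0.01) and -0.04 with sg3 (-0.19). In the average 4 of 70 genes were called higher and 9 lower, against 20.5% and 20.3% of 14270 genes tested in these 9 libraries. Of the 10 lower genes, 8 were called lower again (ATP5MC1, NDUFA11, NDUFA5, NDUFA8, NDUFB10, NDUFB2, NDUFB9 and NDUFS5). With sg3, 8 were called lower instead of 19, 7 of them among the 19, against 17.1% of all genes. SDHA, SDHB, UQCRQ and UQCR10 lost their call with sg3, at adjusted p between 0.0969 and 0.264 in edgeR's quasi-likelihood test. With sg3, 4 genes were called higher, against 18.3% of all genes.

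Among the genes called higher in these 9 libraries were ATP5MC2, NDUFB4 and NDUFS4, the last of which encodes a supernumerary subunit in the matrix arm. Log2 fold changes were 0.20 for ATP5MC2 (adjusted p = 0.000264), 0.20 for NDUFS4 (adjusted p = 0.0196) and 0.15 for NDUFB4 (adjusted p = 0.00474). All 6 remaining knockout libraries lay above the 3 remaining controls for 4 genes (NDUFB4, NDUFS4, SDHC and ATP5MC2), and below for 5 (NDUFA5, NDUFA8, NDUFB10, NDUFB9 and ATP5MC1), against 16.4% and 16.6% of all genes tested.

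Single libraries moved the counts as well. The 10 lower genes of the guide average became 5 without control library 1, 4 without control library 3 and 6 without sg2 library 3. They became 17 without sg3 library 1 and 5 without sg3 library 3. In these fits 18.2% to 21.2% of all genes were lower. The 1 higher gene became 2 without control library 3 and 3 without sg3 library 4, against 2678 of 14155 and 3019 of 14160 genes tested. The 19 lower genes of sg3 became 11 without control library 1 and 9 without control library 3. They became 30 without sg3 library 1, 8 without sg3 library 3 and 10 without sg3 library 4. In these fits 18.7% to 20.4% of all genes were lower with sg3.

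Some members may not be read properly from this table. NDUFS1, NDUFS3, NDUFA3 and UQCRC2, all with 9 or fewer counts in any library, were the 4 symbols under the level filter, and NDUFA6 passed with 212 counts at most. All 5 have gene models placed on 1 to 9 additional contigs of the build. Of 1149 protein-coding gene models that lie on additional contigs, 74.5% stayed under 1 CPM in every library, against 36.4% of 17856 on 1 contig only. Whether the additional contigs account for the low counts was not tested, so a count near 0 is not read here as low expression. NDUFA10, also on 1 further contig, did collect 776 to 6688 counts. ATP5F1E, the epsilon subunit of the ATP synthase, averaged 3.21 CPM in control and shares 40.7% of its exon bases with other gene models.

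Promoter sequences of RefSeq (GRCh38.p14, 250 bases before and 50 after the start) were matched for 57 of the 70 genes. They are shown for NDUFA8 and ATP5MC1, which were lower in all settings, and for ATP5ME, which stands for the shortest genes. Capitals mark the letters CGCATGCG (a core of NRF1 sites), CCGGAAG (ETS factors, which include GABP), AAGATGG (YY1) and CACGTG (E-box), on either strand. In these sequences the marked motifs do not overlap each other.
NDUFA8, chr9:122159730-122160029, minus strand: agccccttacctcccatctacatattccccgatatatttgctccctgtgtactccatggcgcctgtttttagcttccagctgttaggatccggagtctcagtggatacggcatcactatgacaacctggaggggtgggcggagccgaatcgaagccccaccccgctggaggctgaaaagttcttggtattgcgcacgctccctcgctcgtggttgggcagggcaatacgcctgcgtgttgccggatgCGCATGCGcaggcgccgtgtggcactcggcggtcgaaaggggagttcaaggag
ATP5MC1, chr17:48892537-48892836, plus strand: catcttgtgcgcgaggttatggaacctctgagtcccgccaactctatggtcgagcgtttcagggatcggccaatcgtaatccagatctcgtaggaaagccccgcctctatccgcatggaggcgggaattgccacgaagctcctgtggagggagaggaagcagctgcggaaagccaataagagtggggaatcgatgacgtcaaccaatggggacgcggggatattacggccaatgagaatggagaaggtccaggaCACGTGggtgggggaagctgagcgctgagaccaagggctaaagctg
ATP5ME, chr4:674227-674526, minus strand: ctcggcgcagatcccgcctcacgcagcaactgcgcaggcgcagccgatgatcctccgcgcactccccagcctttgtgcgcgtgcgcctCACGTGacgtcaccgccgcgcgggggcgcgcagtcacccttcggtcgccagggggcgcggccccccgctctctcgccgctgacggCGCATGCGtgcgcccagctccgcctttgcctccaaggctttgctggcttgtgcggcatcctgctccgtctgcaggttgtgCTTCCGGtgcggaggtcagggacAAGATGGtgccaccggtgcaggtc

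NRF1, GABP and YY1 are known regulators of nuclear genes for mitochondrial proteins. The letters CGCATGCG stood in 10 of 57 subunit gene promoters (17.5%), against 2.19% of 27305 promoters of all genes and 3.94% of the 10436 promoters of genes tested. AAGATGG stood in 24.6%, against 6.06% and 7.69%, and CCGGAAG in 29.8%, against 10.7% and 19.2%. CACGTG stood in 12.3%, against 7.43% and 9.98%. The median log2 fold change of the guide average was -0.07 for the genes with CGCATGCG and -0.08 for those without it, -0.09 and -0.07 for CCGGAAG, and -0.09 and -0.08 for AAGATGG. It was -0.18 for the 7 genes with CACGTG and -0.07 for those without, -0.08 and -0.10 for GGGCGG, and -0.10 and -0.08 for TATAAA. These are descriptions of letters in a window and were not tested.

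Of 4 carriers and subunits outside the symbol rule that were tested, 3 were called lower in the guide average, against 22.3% of all genes, and UQCRHL, a copy of UQCRH, was not called (-0.15, adjusted p = 0.564). Among the 3 was CYCS (cytochrome c) at -0.18 (SE 0.06, adjusted p = 0.0278). NDUFAB1, the mitochondrial acyl carrier protein and also a part of complex I, was at -0.18 (SE 0.07, adjusted p = 0.0462). CYC1 (cytochrome c1 of complex III) was at -0.11 (SE 0.04, adjusted p = 0.0234). The same 3 were called lower without the 3 libraries named above.

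Tissue-specific isoforms of complex IV were near 0, with COX4I2, COX6A2, COX7A1 and COX8C at 0 counts in all libraries and COX6B2 and COX7B2 at most 4 counts. HIGD1A, a hypoxia-inducible protein that associates with complex IV, measured 137, 138, 127 and 130 CPM with sg2 and 136, 128, 125 and 121 CPM with sg3, against 170, 158, 176 and 162 CPM in control. All knockout libraries lay below all controls, with a log2 fold change of -0.35 (SE 0.04, adjusted p = 3.61e-06). COX7A2L, which takes part in joining complexes III and IV into supercomplexes, was higher by a log2 fold change of 0.18 (SE 0.05, adjusted p = 0.0121). NDUFA4L2, a paralog of NDUFA4, was at 0.49 (SE 0.21, adjusted p = 0.0673) and HIGD2A at 0.04 (SE 0.07, adjusted p = 0.617).

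Assembly factors, which build the complexes but are no lasting part of them, numbered 53 among the genes tested. Of these, 21 were lower (39.6%, against 22.3% of all genes) and 3 higher (5.66%, against 21.6%), with 29 not called and a median log2 fold change of -0.11. Without the 3 low libraries 16 were lower, 15 of them among the 21, and 2 higher, against 20.3% and 20.5% of all genes. By complex, 8 of 16 factors for complex I were lower, 3 of 10 for complexes II and III (2 higher), 8 of 22 for complex IV (1 higher) and 2 of 5 for complex V.

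COA7, a factor for complex IV, measured 130, 135, 112 and 101 CPM with sg2 and 113, 107, 110 and 106 CPM with sg3, against 156, 149, 159 and 143 CPM in control. BCS1L, which inserts the Rieske iron-sulfur protein into complex III, measured 39.7, 36.0, 37.3 and 38.2 CPM with sg2 and 34.8, 35.6, 33 and 30.9 CPM with sg3, against 46.3, 45.2, 46.1 and 41.2 CPM in control. In both genes every knockout library lay below every control. The log2 fold change was -0.41 for COA7 (SE 0.06, adjusted p = 3.99e-05) and -0.33 for BCS1L (SE 0.05, adjusted p = 2.78e-05). For complex I, NDUFAF8 was at -0.47 (SE 0.09, adjusted p = 0.000639), NDUFAF5 at -0.34 and NDUFAF4 at -0.34. For complex V, TMEM70, which acts in the assembly of the subunit c ring, was at -0.28 (SE 0.05, adjusted p = 0.000238), and ATPAF1 at -0.14. COA3 and COA4 of complex IV were at -0.26 and -0.25. The higher factors were SDHAF4 (0.33, adjusted p = 0.0231), SDHAF1 (0.30, adjusted p = 0.0356) and COX18 (0.20, adjusted p = 0.0113).

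Of 14 genes of the tricarboxylic acid (TCA) cycle, 2 were called higher and 5 lower (14.3% and 35.7%, against 21.6% and 22.3% of all genes). IDH2, the mitochondrial NADP-dependent isocitrate dehydrogenase, measured 183, 180, 183 and 209 CPM with sg2 and 198, 209, 201 and 215 CPM with sg3, against 153, 151, 154 and 152 CPM in control. All knockout libraries lay above all controls, with a log2 fold change of 0.37 (SE 0.04, adjusted p = 3.11e-06). The subunits of succinyl-CoA ligase moved apart, with SUCLG2, of the GTP-forming enzyme, at 0.20 (SE 0.04, adjusted p = 0.000539) and SUCLA2, of the ATP-forming enzyme, at -0.24 (SE 0.05, adjusted p = 0.00209). Their difference was not tested.

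Of 14 regulators of mitochondrial genes, 8 were called lower and 1 higher (57.1% and 7.14%, against 22.3% and 21.6% of all genes). PPRC1, a coactivator of the PGC-1 family, measured 178, 186, 177 and 163 CPM with sg2 and 153, 157, 173 and 176 CPM with sg3, against 218, 222, 206 and 218 CPM in control. Every knockout library lay below every control, with a log2 fold change of -0.34 (SE 0.04, adjusted p = 1.02e-05). TFB2M, a transcription factor of the mitochondrial chromosome, was at -0.24 (SE 0.07, adjusted p = 0.00767), and MYC at -0.23 (SE 0.03, adjusted p = 1.5e-05). Without the 3 low libraries 7 of the 8 were called lower again, where 20.3% of all genes were lower.

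On the mitochondrial chromosome, 7 of the 13 respiratory genes were called lower (53.8%, against 22.3% of all genes) and 6 were not called, with a median log2 fold change of -0.24. CYTB, cytochrome b of complex III, measured 1135, 1242, 1084 and 1080 CPM with sg2 and 966, 986, 976 and 989 CPM with sg3, against 1507, 1483, 1436 and 1378 CPM in control. All knockout libraries lay below all controls, including sg3 libraries 1 and 2, in which the median over the nuclear subunit genes was near the control mean. The log2 fold change was -0.46 (SE 0.04, adjusted p = 2.35e-07). COX3 was at -0.26 (SE 0.04, adjusted p = 0.000175) and ND1 at -0.25 (SE 0.03, adjusted p = 7.31e-06). Without the 3 low libraries 9 of 13 were lower, the 7 included, against 20.3% of all genes. In bulk samples fewer cells of a type and less RNA per cell cannot be told apart, and genes of this chromosome that lie on opposite strands were counted with no stated strand.

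**Figure D5:**
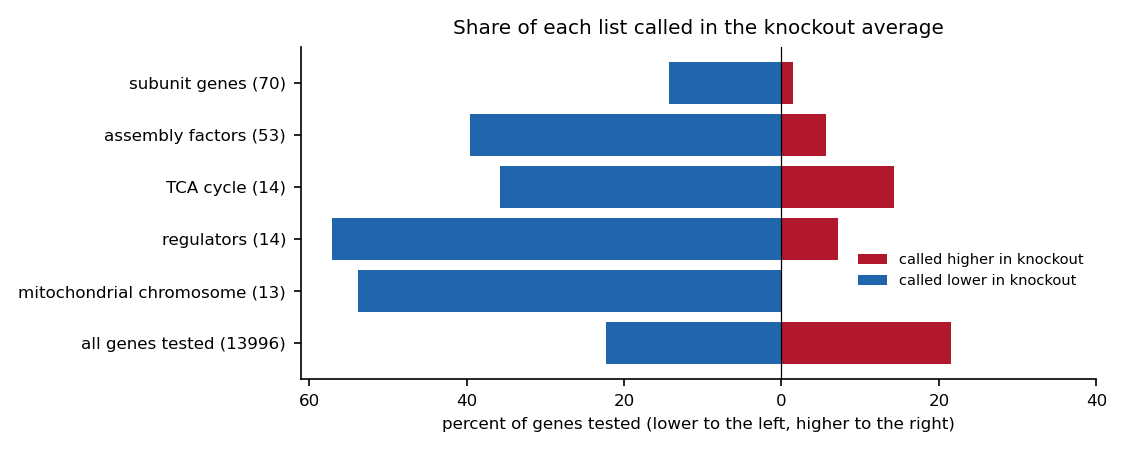
Percent of the genes tested in each list (x axis, lower to the left and higher to the right of 0) that were called in the average of both guides against Luc control, with the number tested in parentheses. Subunit genes had 14.3% lower and 1.43% higher, mitochondrial chromosome genes 53.8% lower, and all genes 22.3% lower and 21.6% higher.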

How the data were processed

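The deposited table held raw counts per gene for 12 libraries. The authors trimmed the stranded read pairs (Trimmomatic 0.39), mapped them to hg38 (STAR 2.7.4a) and produced the counts with featureCounts 2.0.1, for which no strand option is given. Of 38571 lines, 20 were broken and left out, touching 6 genes. Groups came from the sample titles. Replicate counts differed by more than sampling noise (reduced chi-square 1.71 to 12.4, 18 pairs), so no libraries were merged.

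The fit used R 4.3.3 and edgeR 4.0.16, with filterByExpr (count minimum 10, total minimum 15), TMM, glmQLFit and glmQLFTest and Benjamini-Hochberg adjustment. It had 1 mean per group over all 12 libraries. Contrasts were the average of both guides, each guide, and sg3 against sg2. CPM is TMM-scaled, log2 levels used a prior count of 2, and each SE was obtained as |log2 fold change| over the root of F. Alternatives were DESeq2 1.42.0 (the tool of the study), limma-voom (limma 3.58.1), other scalings and filters, 2 groups in the fit, a replicate block, a length trend and left-out libraries. The scripts were tested on simulated data.

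The members and lists were chosen with earlier results of these data known. Genes named with values were, per complex, up to 3 called risers and 3 called fallers of the guide average and the member with the highest level per length in control, and up to 3 called genes with the largest change from each other list. Alternative isoforms were named wherever tested. The erythroid and megakaryocyte markers are given by count only. SDHA, UQCRQ, UQCR10, ATP5ME, ATP5MC2, ATP5MC3, NDUFB4, NDUFS4 and COX18 are named outside this rule, after their values were seen. Results of 1 member are not reported here, although it counts among the 70.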

Additional observations from a re-analysis of the deposited data

Results flagged for a closer look

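NDUFS8 was lower in control library 4 than in the other controls, at 59.9 CPM against 64.9, 65.1 and 65.4 CPM in control libraries 1 to 3. The gap took a share of 0.911 of the range of the group, over Dixon's limit for 4 samples. Of 60 groups of 4 libraries examined, over the named members, KDM4C and the medians by complex, this was the only 1 past the limit, and chance alone passes about 1 in 20. Control library 4 was also the lowest control for 57 of the 70 subunit genes.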

How the results depend on the processing

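Of the named results, fold changes of NDUFA8, NDUFB9, ATP5MC1 and KDM4C (guide average and sg2) kept their call in all 24 alternatives. None of these changed sign, and neither did the guide-average values of NDUFB2, NDUFS5 and ATP5PB. The sign of other named genes was not followed in this way. NDUFB4 with sg3 went from -0.06 to 0.17 without sg3 libraries 3 and 4 and control library 4. The guide-average median over the members stayed between -0.12 and -0.03, but medians by complex near 0 changed sign. Complex IV, at -0.06, was at 0.03 without sg3 libraries 3 and 4 and control library 4 and at 0.01 without sg3 library 4. The complex I core median changed sign in 7 alternatives (up to 0.04) and that of complex II in 3 (down to -0.01). The 10 lower genes of the guide average became 5 with 2 groups in the fit, against 21.1% of all genes. They became 16 with a length trend (23.9% of all genes) and 18 with the trend and a replicate block (23.7%). With no filter on low counts they became 20, against 12.2% of all genes. The 1 higher gene became 2 with upper quartile scaling, no filter, a CPM filter, DESeq2, limma-voom, a length trend and the trend with block, and 4 without sg3 libraries 3 and 4 and control library 4. For sg2, 0 lower genes became 3 with the length trend, with or without block, and 4 without the 3 libraries. The count was 1 with no filter or without sg2 libraries 1 and 2. In these settings 7.43% to 15.7% of all genes were lower with sg2. The 1 higher gene became 4 with 2 groups, 2 with the trend, 3 with trend and block, 0 without sg2 libraries 1 and 2, and 2 without the 3 libraries. For sg3, 19 lower genes became 33 with no filter (12.1% of all genes) and 8 without the 3 libraries (17.1%). They became 25 with the length trend (23.9% of all genes) and 28 with trend and block (23.8%). The count was 24 with limma-voom (23.3% of all genes), 27 with the block (21.8%) and 15 with 2 groups (21.9%). The 2 higher genes became 1 with 2 groups, no filter, the block, the trend, or both, and 4 without the 3 libraries. For sg3 against sg2, 0 lower genes became 14 of the 70 with no filter, against 0.67% of all genes. The cause of these differences was not tested. Leaving out each library in turn gave 4 to 17 lower and 1 to 3 higher genes in the average. With sg2 it gave 0 to 1 lower and 0 to 2 higher, and with sg3 8 to 30 lower and 1 to 2 higher. Of all genes, 17.5% to 22.1% were lower in the average, 10.1% to 15.0% with sg2 and 18.3% to 21.8% with sg3.

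Samples of the same replicate number did not deviate together (r between -0.17 and 0.18 over 12 pairs, and the best match had the same number in 5 of 24 cases), so they share only a number. With the number as a replicate block, 12 members were lower and 1 higher in the average, 0 lower and 1 higher with sg2 (NDUFS4, not called without the block), and 27 lower and 1 higher with sg3.

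The lowest count of any member was 18 in 1 library. The shares of depth and of library spread in the calls were not compared.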
